A study of Drosophila melanogaster with 999 samples.

Results

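The twit-high motoneurons (MNs) are the sorted cells with 10 or more reads of target of wit (twit) and fewer than 10 reads of Vmat, the vesicular monoamine transporter gene that marks modulatory neurons. The members were thus chosen by their measured reads of twit and Vmat, and they were 18.7% of all cells (exact 95% binomial interval 16.3 to 21.3%), with 5 to 19 on each of 16 plates. All cells came from pooled Drosophila embryos aged 19 to 20 h, which carried OK371-GAL4 and UAS-RFP. The cells were sorted as RFP-positive, DAPI-negative and DRAQ5-positive, and were sequenced as single cells with Smart-seq2. The OK371 driver follows VGlut, the vesicular glutamate transporter gene of glutamatergic neurons, so that a glutamatergic cell other than a MN can carry it too. The twit-high cells were set against the low-twit cells, which had fewer than 10 reads of both twit and Vmat and were the larger group. The labels give 1 group of cells and do not tie a cell to an embryo or a collection, so cells are not replicates here, no test was run, and intervals cover counting error in these cells only.

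The fly neuromuscular system links a small set of MNs in each hemisegment to a fixed set of muscles. Its growth depends on bone morphogenetic protein (BMP) signalling: muscle releases the ligand Gbb, the receptor Wit on the MN binds it, and phosphorylated Mad enters the nucleus. twit encodes a small membrane-anchored protein of the Ly6 family and is named as a target of this receptor. MN types are further set apart by transcription factors, with eve and grn in MNs that project dorsally and Lim3, tup (Islet), exex (Hb9) and HGTX (Nkx6) in MNs that project ventrally.

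The rule used the twit count itself, so its level is a description. Across its cells twit had from 10 to 15183 reads, with lower and upper quartiles of 88 and 845.5 reads and a median of 261.1 normalised counts (counts scaled to the median total of a cell). The members closest to the limit had 10, 10, 10, 12, 13 and 13 reads, and the cells just outside it had 9, 9, 7, 6, 5 and 4 reads. Of the low-twit cells 27 had 1 to 9 reads of twit and the others had none. Hence few cells lay near the limit. Per transcript length, twit averaged 2707 TPM (the authors' length-scaled transcript abundance) in twit-high cells and 0.857 TPM in low-twit cells.

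Depth was alike in both groups, while the share of ribosomal RNA was not. The total per cell had a median of 344686 reads in twit-high cells (101262 to 4879940) and 341603 reads in low-twit cells (100027 to 5834773). A median of 49.4% of reads in twit-high cells and 36.2% in low-twit cells fell on 11 ribosomal RNA sequences, which left medians of 164197 and 187063 other reads. Genes with 10 or more reads had a median of 1033 per twit-high cell and 1134 per low-twit cell. The counts of higher and lower genes below are also given with other scalings, after thinning and within classes of cells with like gene numbers. Twit-high cells made up 9.33 to 29.4% of the cells of each plate.

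The markers of neurons were found in most cells. VGlut had 10 or more reads in 87.7% of twit-high cells and 94.5% of low-twit cells, and elav, a pan-neural RNA-binding protein gene, in 79.1% and 80.4%. At a limit of 1 read the VGlut shares were 96.8% in twit-high cells and 96.7% in low-twit cells, so their order turned. zfh1, a homeodomain and zinc finger factor of MNs, was found in 63.1% of twit-high cells and 28% of low-twit cells. Of 20 muscle markers, 10 were in no twit-high cell, and Mef2, which neurons also express, was the only 1 above 5% of cells in either group. The summed reads of the muscle list had a median of 0.00039% of a cell's reads in both groups, with a highest value of 0.114% in twit-high cells and 0.374% in low-twit cells. Of 20 glial markers, 8 were in no twit-high cell and 3 passed 5% of these cells, namely Tret1-1, a trehalose transporter gene, in 13.4% of twit-high cells and 0.546% of low-twit cells, nrv2 in 41.2% and 56.2%, and Nrt in 19.8% and 31.8%. Of 14 tendon and epidermis markers, 4 were in no twit-high cell. cora was the only 1 of the 7 tested that was higher (1.5 on the log2 scale, 62% and 41.1% of cells). shot was found in 38% of twit-high and 24.4% of low-twit cells, shg in 8.02% and 1.91%, Fas3 in 4.81% and 18.8%, sr in 4.81% and 14.3%, and kune in 6.95% and 14.3%. The part of these markers in the results was not tested. The summed reads of this list had a median of 0.0272% in twit-high cells and 0.0229% in low-twit cells. The glial sum reached 0.494% of reads in a twit-high cell and 13.2% in a low-twit cell.

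Beside twit, the leading genes of twit-high cells were rhea, AnxB9, CG1402, lbm and CG14274. rhea encodes Talin, which ties integrins to the actin cytoskeleton, AnxB9 an annexin, a calcium-dependent membrane-binding protein, and lbm (late bloomer) a tetraspanin of motor axons. Counts were scaled to the median total and log2-transformed after adding 1, and genes with 10 or more reads in at least 5% of either group were kept (4807 genes besides twit). Of these, 3.2% had a mean log2 value at least 1 higher in twit-high than in low-twit cells and 4.49% a value at least 1 lower, and these are called higher and lower here. The median difference of all 4807 genes was -0.13. With size factors from the reads outside ribosomal RNA, 3.97% of these genes were higher and 3.52% lower, and without the 50 largest genes 4.18% and 3.39%, so that the balance of higher and lower genes turned with the scaling. It also turned when the difference was averaged within 3 classes of cells by genes detected (3.93% and 3.52%), but not after thinning (3.18% and 4.58%).

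rhea (FBgn0260442, chromosome 3L, 8545001 to 8574409, BDGP6.54) had a lowest, median and highest normalised count of 0, 484.6 and 2379 in twit-high cells, against 0, 0 and 1074 in low-twit cells. It was found with 10 or more reads in 91.4% of twit-high cells (86.5 to 95%) and 22.6% of low-twit cells (19.7 to 25.9%), and its mean log2 value was 8.2 ± 2.5 in twit-high cells and 1.5 ± 2.4 in low-twit cells (SD over cells). The groups overlapped, since some twit-high cells had no read of rhea and the highest low-twit cell lay above the twit-high median. The difference of 6.68 was positive on all 16 plates, with 3.50 to 8.37 within a plate.

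AnxB9 (3R, 21065241 to 21070917) was the more selective gene. It was found in 79.7% of twit-high cells (73.2 to 85.2%) and 3.55% of low-twit cells (2.33 to 5.15%), with medians of 132.1 and 0 normalised counts. lbm (2R, 7049238 to 7051964) was found in 65.2% (57.9 to 72%) and 5.32% (3.81 to 7.20%). CG1402 (X, 7826197 to 7842679) was found in 92% (87.1 to 95.4%) of twit-high cells and 13.5% (11.1 to 16.2%) of low-twit cells, which made it as frequent in twit-high cells as rhea. CG14274 (2L, 8338287 to 8342056), a Ly6 gene like twit, was found in 65.2% and 3.27%. After thinning each cell to 100000 reads the shares were 90.4% in twit-high and 13.6% in low-twit cells for rhea, 71.1% and 2.87% for AnxB9, 55.1% and 3.96% for lbm, and 84.5% and 10.8% for CG1402.

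**Figure D1:**
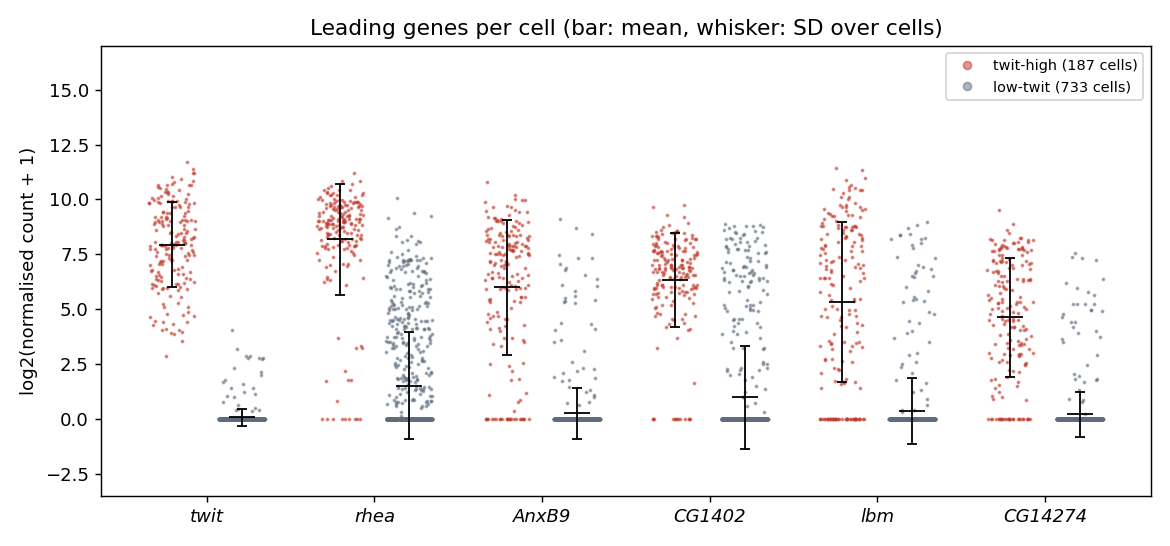
log2(normalised count + 1) of twit and the 5 leading genes, 1 point per cell, in twit-high cells (red, left of each pair) and low-twit cells (grey); the bar is the mean and the whisker the SD over cells. twit chose the groups; the means of rhea are 8.2 in twit-high and 1.5 in low-twit cells, and most low-twit cells lie at 0 for each gene.

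Most members held most of the leading genes, which follows in part from how these genes were chosen. Of the 10 genes with the largest differences, 91.4% of twit-high cells held 5 or more, and 55 cells held all 10. In contrast, 38 low-twit cells (5.18%) held 5 or more and none held all 10. Of those 38 low-twit cells, 30 had rhea, 12 had AnxB9 and 8 had 1 or more reads of twit. The share also followed the twit count: AnxB9 was found in 3 of 27 cells with 1 to 9 reads of twit and, in classes that begin at 10, 50, 250 and 1000 reads of twit, in 17 of 35, 46 of 59, 50 of 55 and 36 of 38 cells. rhea was already in 11 of 27 cells with 1 to 9 reads of twit and in 31 of the 35 of the next class. Median totals over these 5 classes were 332996, 183550, 269402, 381611 and 673580 reads, and the part of depth in the trend was not tested.

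The transcripts of rhea differed as well. The deposited per-cell estimates placed 79.8% of all rhea reads of twit-high cells on the transcript rhea-RE (9937 bases) and 16.4% of those of low-twit cells. rhea-RE took more than 50% of the rhea reads in 86% of the twit-high cells with 10 or more of them and in 6.63% of such low-twit cells (11 cells). In low-twit cells rhea-RC (40.2%) and rhea-RF (24.6%) took more. These transcripts share most of their bases, so the split is an estimate of kallisto. In AnxB9, no transcript took more than 32.2% of the reads in twit-high cells.

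CG14400 was singled out after its values were seen, as it was found in 53 twit-high cells (28.3%, 22 to 35.4%) and in 0 low-twit cells (exact upper bound 0.502%). The gene (2L, 20856987 to 20857891, minus strand) overlaps the end of twit (20852578 to 20857113, plus strand). Smart-seq2 does not mark strand, so reads of the shared bases cannot be assigned to either gene. The next genes of the same Ly6 cluster were rare: CG9336 was found in 5.35% of twit-high cells and 0.819% of low-twit cells, and CG31675 in 4.28% and 0.273%. Of 10 Ly6 genes tested, CG14274 and CG8861 were higher (20%, beside 3.2% of all genes) and none was lower. CG14274 was already named as a leading gene. Both it and CG9336 passed the 5% filter through the twit-high cells only, so this share is a description.

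The tetraspanins that were higher all lay in the same gene cluster. Tetraspanins are membrane-spanning proteins that organise other proteins around them. In the 42E cluster (2R, 7012254 to 7057548), 4 of 7 genes tested were higher and none was lower, whereas of 8 tetraspanins elsewhere none was higher and 2 were lower. Next to lbm these were Tsp42Ef, found in 48.1% of twit-high and 1.64% of low-twit cells, Tsp42Eg in 27.3% and 1.09%, and Tsp42Ee in 59.4% and 35.1%. Each was higher on all 16 plates. Within the same cluster Tsp42Ej was found in 51.9% of twit-high and 47.9% of low-twit cells. The lower genes were Tsp66E, with a difference of -1.94, and Tsp97E, with -1.31. Over the 15 tetraspanins tested 26.7% were higher and 13.3% lower, beside 3.2% and 4.49% of all genes. lbm, already named as a leading gene, is among the higher genes. Tsp42Ef, Tsp42Eg and Tsp42En (13.9% and 1.09% of cells) passed the 5% filter through the twit-high cells only. Tsp42Eo and Tsp42Ep of the same cluster were rare in both groups and were not tested. The shares of higher tetraspanins, inside the cluster and in all, are thus a description.

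Integrin adhesion genes gave a similar split between a few large differences and many small ones. Of 19 tested, 3 were higher (15.8%) and 1 lower (5.26%), beside 3.2% and 4.49% of all genes, with a median of 0.07. The higher genes were rhea, mew and mys. As rhea was already named as a leading gene and the lists were drawn with earlier results known, this share is a description. mew, the alpha PS1 integrin, was found in 50.8% of twit-high cells (43.4 to 58.2%) and 7.64% of low-twit cells (5.82 to 9.81%), and mys, the beta PS integrin that pairs with it, in 27.8% and 12.7%. Sdc (syndecan), a heparan sulphate proteoglycan, was lower by -1.48.

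**Figure D2:**
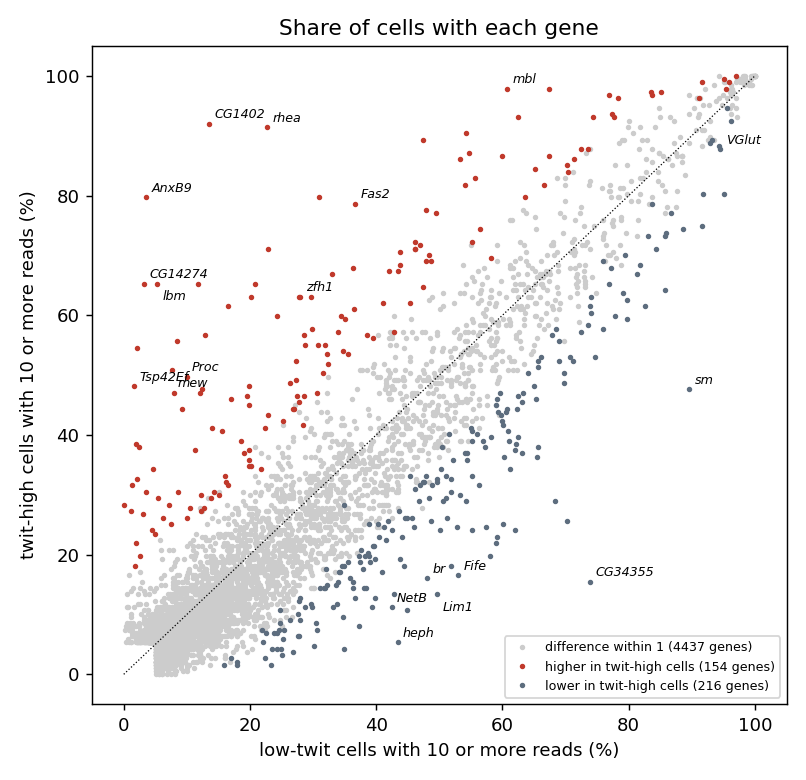
Share of cells with 10 or more reads of each of 4807 genes in low-twit cells (x axis, %) and in twit-high cells (y axis, %), 1 point per gene. The higher genes (red, 3.2%) lie above the dotted line of equal shares, with rhea at 91.4% against 22.6%, and the lower genes (dark grey, 4.49%) lie mostly below it, with CG34355 at 15.5% against 73.8%.

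Among BMP genes, modulators and a target differed while the receptors tested did not reach the limit. Of 26 genes tested, 4 were higher (15.4%) and 2 lower (7.69%), beside 3.2% and 4.49% of all genes, with a median of -0.02. cv-2 (Crossveinless 2), which binds BMP ligands outside the cell, was found in 44.4% of twit-high cells (37.1 to 51.8%) and 9.28% of low-twit cells (7.28 to 11.6%). Dad, the inhibitory Smad that is transcribed in response to Mad, was found in 37.4% (30.5 to 44.8%) and 11.3% (9.12 to 13.8%). Both were higher on 15 of 16 plates. dally, a glypican, and Actbeta, an activin ligand, differed by 1.20 and 1.25. The receptor genes were seldom detected: wit was found in 5.88% of twit-high and 8.19% of low-twit cells, tkv in 3.21% and 4.77%, and put in 4.28% and 12.3%. tkv did not pass the 5% filter and was not tested. The lower genes were tok, a protease of the Tolloid family, found in 1.60% of twit-high and 23.3% of low-twit cells, and Nrx-1 (-1.31).

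Hox genes, which place a cell along the anterior-posterior axis, were detected more often in twit-high cells. The library protocol added primers for 7 Hox genes (Abd-B, abd-A, Ubx, Antp, Scr, Dfd and lab), so shares of these genes stand above what the plain protocol would give. At least 1 of these 7 genes had 10 or more reads in 88.2% of twit-high cells (82.7 to 92.5%) and 58% of low-twit cells (54.3 to 61.6%), with a higher share on all 16 plates. abd-A was found in 46.5% and 27.4%, Ubx in 50.3% and 31.5%, Antp in 47.1% and 30.7%, and Abd-B in 26.2% and 16.5% of twit-high and low-twit cells. pb was found in 2.14% and 6.96%, and Dfd in 1.60% and 4.50%.

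Among cells with a Hox gene the gap of each of the 4 most frequent genes was small. Antp was then found in 53.3% of twit-high cells and 52.9% of low-twit cells, Ubx in 57% and 54.4%, abd-A in 52.7% and 47.3%, and Abd-B in 29.7% and 28.5%, all with overlapping intervals. At least 1 of the 3 most posterior genes (Abd-B, abd-A and Ubx) was still found in 81.2% of these twit-high cells (74.4 to 86.9%) and 69.4% of these low-twit cells (64.8 to 73.8%). At the anterior end, an anterior gene (Scr, Dfd or lab) with none of the other 4 was found in 7.88% of these twit-high cells (4.26 to 13.1%) and 20% of these low-twit cells (16.3 to 24.1%). tsh (teashirt), a zinc finger factor of the trunk, was found in 73.9% and 59.8%, and among all cells in 67.9% and 36.3%. The most frequent combination was Antp, Ubx and abd-A, in 25 twit-high cells (13.4%) and 61 low-twit cells (8.32%).

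**Figure D3:**
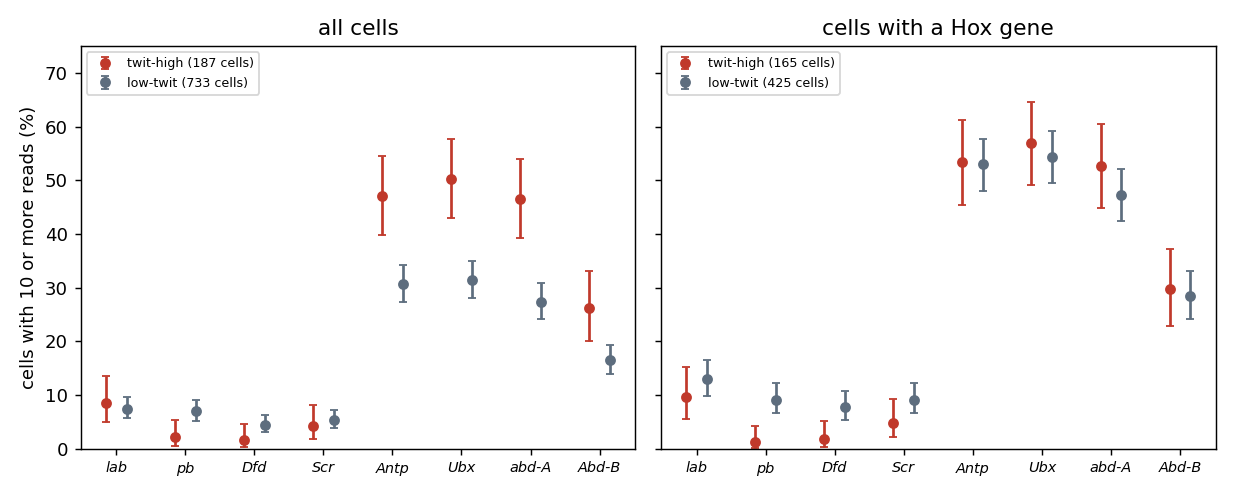
Share of cells with 10 or more reads of each Hox gene (y axis, %) in twit-high cells (red, left) and low-twit cells (grey), over all cells (left panel) and over cells with a targeted Hox gene (right panel); bars are exact 95% binomial intervals. abd-A lies at 46.5% against 27.4% over all cells and at 52.7% against 47.3% over cells with a Hox gene.

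Over the levels of Antp, Ubx, abd-A and Abd-B, the leading genes did not depend on a single axial level. With Scr, Dfd or lab as the most posterior gene there were 7, 2 and 4 twit-high cells, which were not compared. By the most posterior Hox gene, the twit-high cells held 49 Abd-B, 49 abd-A, 36 Ubx and 18 Antp cells. rhea was found in 98%, 93.9%, 100% and 100% of them, and AnxB9 in 89.8%, 79.6%, 83.3% and 83.3%. The 22 twit-high cells with no targeted Hox gene were lower for both, with 63.6% and 54.5%. Inside the twit-high cells, the 98 cells with abd-A or Abd-B differed most from the 54 with Ubx or Antp as the most posterior gene in hth (-2.17), which encodes a Hox cofactor, and, in the other direction, in lost (1.78), otk (1.72) and trio (1.67). otk, a receptor-like protein of axon guidance, was found in 40.8% and 14.8% of these cells.

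Transcription factors divided the twit-high cells. eve or grn without the other set was found in 35 cells (18.7%), 1 or more of Lim3, HGTX, tup and exex without eve or grn in 79 cells (42.2%, 35.1 to 49.7%), both sets in 3 cells, B-H2 alone in 12 cells and none of these in 58 cells. These classes were drawn after the values were seen. In low-twit cells the classes held 31.2%, 12.7% (93 cells, 10.4 to 15.3%), 0.819%, 0.819% and 54.4% of cells. eve was found in 21 twit-high cells (11.2%, 7.09 to 16.6%) and 4 low-twit cells (0.546%, 0.149 to 1.39%), while grn was found in 17.6% and 31.7%. HGTX was found in 16.6% and 0.819%, Lim3 in 30.5% and 8.59%, tup in 19.3% and 6.0%, and exex in 11.8% and 2.18% of twit-high and low-twit cells.

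Within a set the factors were often found together, and across sets they shared 3 cells. The counts for independent genes given here take no account of depth. Median totals were 380191 reads in the eve or grn class and 415016 in the Lim3, HGTX, tup or exex class. Twit-high cells with none of these factors had 289695, and the part of depth in the pairings was not tested. Of 22 twit-high cells with exex, 18 had Lim3, against 6.71 for independent genes at these shares. Lim3 and HGTX shared 21 cells (9.45 if independent) and Lim3 and tup 22 cells (11). eve and grn shared 16 of 21 eve cells (3.71). No twit-high cell had Lim3 with eve or with grn, tup with eve or with grn, or exex with eve or with grn, although 10.1 would hold Lim3 and grn if independent. HGTX was the exception: it was found with grn in 3 cells (5.47 if independent), and with eve in 0 (3.48). Lim1 was found with grn in 15 cells and with Lim3 in 1. B-H2 was found in 12 twit-high cells, and none of these had Lim3 (3.66 if independent), HGTX, tup, exex, eve or grn (2.12 for grn). vvl, a POU factor, was in 10 of them. In low-twit cells Lim3 was found with exex in 11 cells (1.38 if independent), with HGTX in 5 (0.516) and with tup in 12 (3.78). It was found with grn in 3 low-twit cells (19.9), and tup with grn in 1 (13.9). Hence these pairings of Lim3 and tup were not particular to twit-high cells. Only 4 low-twit cells had eve, and 1 of them had grn (1.27 if independent), which is too few to compare. B-H2 was found in 10 low-twit cells, and 4 of these had tup (0.6 if independent).

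**Figure D4:**
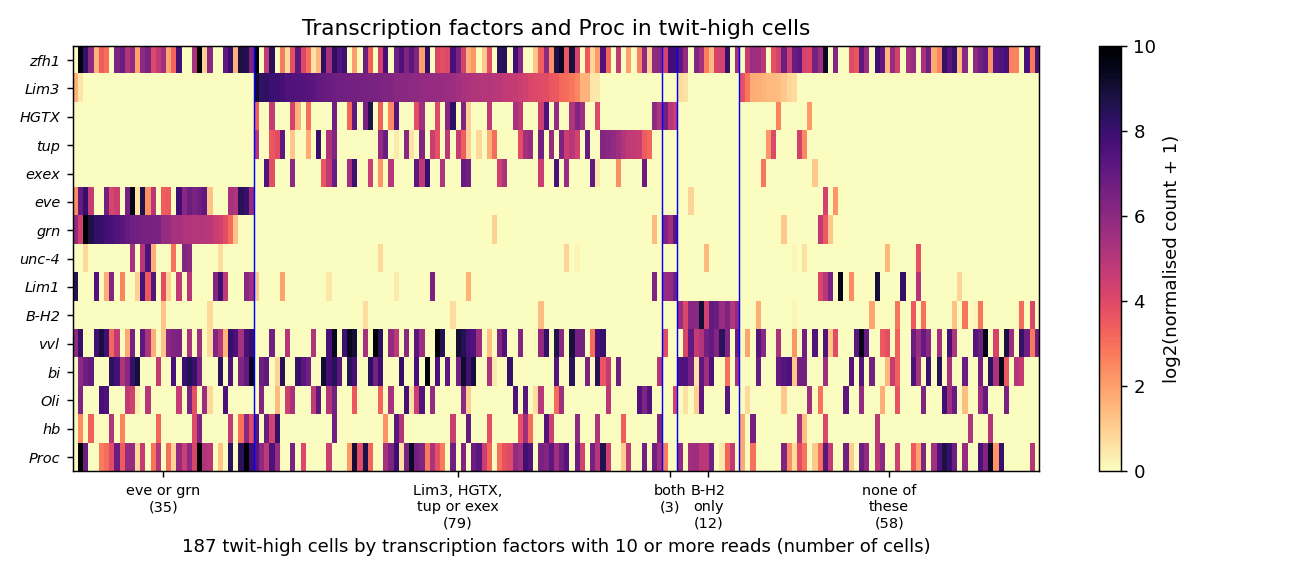
log2(normalised count + 1) of 14 transcription factors and Proc (rows) in the twit-high cells (columns), ordered by class; blue lines divide the classes and the number of cells is in parentheses. The 35 cells with eve or grn and the 79 with Lim3, HGTX, tup or exex exclude each other's factors by the way the classes were drawn, with the 3 cells that hold both apart, while zfh1, vvl, bi and Proc occur in both classes.

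The leading genes of twit-high cells were found in both sets. rhea was found in 91.4% of the 35 eve or grn cells and 91.1% of the 79 Lim3, HGTX, tup or exex cells, AnxB9 in 77.1% and 82.3%, Fas2 in 77.1% and 82.3%, and Proc in 51.4% and 57%. When twit-high and low-twit cells were compared inside a set, all 25 leading genes were still higher in the eve or grn set, in the Lim3, HGTX, tup or exex set and in the cells with none of these. rhea differed by 7.0, 6.7 and 6.05 in these sets. Of the 20 lowest genes 20, 18 and 20 were still lower. Both lists of genes were picked by their differences over these same cells, so these counts follow in part from that choice. The exceptions among the lowest genes, both in the Lim3, HGTX, tup or exex set, were Lim1 (-0.09) and HmgZ (-0.78). In the eve or grn set Lim1 differed by -3.91, with 40% of its twit-high and 92.1% of its low-twit cells. That set differed in make-up between the groups, since eve was found in 21 twit-high cells and 4 low-twit cells.

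Other genes differed between both sets of twit-high cells. Of 2892 genes, the eve or grn cells were led by ct, a homeodomain factor, found in 60% of them and 19% of the Lim3, HGTX, tup or exex cells, Nlg3, a neuroligin, in 91.4% and 58.2%, and beat-Va, a Beat family protein, in 48.6% and 10.1%. Ubx was found in 71.4% and 39.2%. At the other end were Wnt4, a secreted Wnt ligand, in 8.57% of the eve or grn cells and 64.6% of the Lim3, HGTX, tup or exex cells, and kek1, a leucine-rich repeat protein, in 25.7% and 75.9%. In low-twit cells Wnt4 was found in 31.9% of the eve or grn set and 38.7% of the Lim3, HGTX, tup or exex set. kek1 was found in 69.4% and 77.4% of these low-twit sets, Nlg3 in 85.6% and 81.7%, and beat-Va in 16.6% and 11.8%. Ubx was found in 61.6% and 17.2% of them and ct in 27.9% and 11.8%, so both kept their order there. The split of Ubx was thus not particular to twit-high cells. With 35 cells, a share here has a wide interval.

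Of 33 homeodomain genes tested, 6 were higher (18.2%) and 5 lower (15.2%), beside 3.2% and 4.49% of all genes. Of 75 other transcription factors 6 were higher (8%) and 6 lower (8%). The medians of these lists were -0.17 and -0.18. Apart from the Hox genes, the higher homeodomain genes were zfh1 (2.33), Lim3 (1.35) and vvl (1.21). The lower ones were Lim1, found in 13.4% of twit-high cells (8.84 to 19.1%) and 49.7% of low-twit cells (46 to 53.3%), mirr in 11.2% and 33.2%, Dr in 1.60% and 17.9%, dve and NK7.1. The higher others were Atf3 (2.70), scrt (2.06), bi (1.67), luna, kay and chinmo. br (broad), a zinc finger factor, was found in 16% and 48% of twit-high and low-twit cells.

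Surface proteins carried several of the larger differences. Fas2, the fly NCAM of motor axons, was found in 78.6% of twit-high cells (72 to 84.3%) and 36.7% of low-twit cells (33.2 to 40.3%), with medians of 67.5 and 0 normalised counts. Of 46 immunoglobulin (Ig) and leucine-rich repeat genes 8 were higher (17.4%) and 5 lower (10.9%), beside 3.2% and 4.49% of all genes. Nrg (Neuroglian) was higher by 2.06, with 1.57 to 2.55 within plates, and Toll-6 by 2.29. Of 22 Beat and Side genes 5 were higher (22.7%) and 2 lower (9.09%). beat-Ia, an anti-adhesive factor of motor axons, was found in 41.2% and 14.1%, and beat-VI in 71.7% and 46.9%. Of 28 Dpr and DIP genes, whose proteins bind each other in pairs, dpr1, dpr17 and dpr13 were higher (10.7%) and dpr7 was lower (3.57%). DIP-gamma was found in 13.4% and 19.2%, and CG31814 in 9.63% and 22%.

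Of 44 guidance genes 1 was higher (2.27%) and 7 lower (15.9%), beside 3.2% and 4.49% of all genes. NetB, a secreted Netrin, was found in 11.2% of twit-high cells (7.09 to 16.6%) and 42.4% of low-twit cells (38.8 to 46.1%), and was lower on all 16 plates. Dscam4 was found in 24.6% and 52.8%, and Dscam2 in 39.6% and 62.5%. Ptp10D, Lar, Sema2a and Sdc were the other lower genes.

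Among channels, eag, a voltage-gated potassium channel, was found in 89.3% of twit-high cells (84 to 93.3%) and 47.5% of low-twit cells (43.8 to 51.2%). SK, a calcium-activated potassium channel, was found in 96.3% and 78.3%, and Shab in 93% and 77.6%. Of 18 potassium channel genes these 3 were higher (16.7%, beside 3.2% of all genes). Elk (2.67% and 22.4%) and Shal (35.8% and 52.1%) were lower (11.1% of the 18, beside 4.49% of all genes). para, the voltage-gated sodium channel, was in all twit-high cells and 97% of low-twit cells, with a difference of 1.28. shakB, an innexin of electrical synapses, differed by 2.0. pHCl-1, a pH-sensitive chloride channel, differed by 3.09. Of 59 transmitter receptor genes 2 were higher (3.39%, near the share of all genes) and 7 lower (11.9%), among them DopEcR, 5-HT1A, Dop1R1 and the ionotropic glutamate receptors GluRIA and GluRIB.

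Of 47 genes of the synapse 3 were higher (6.38%) and 8 lower (17%), beside 3.2% and 4.49% of all genes, with a median of -0.31 beside -0.13. VGlut differed by -2.21, with differences of -3.44 to -1.18 within plates, Fife, an active zone protein, by -2.67, Sytbeta by -2.24 and Rab3 by -2.06, whereas Rbp and brp, also of the active zone, were higher by 1.82 and 1.20. Of 34 cytoskeletal genes 8 were higher (23.5%) and 2 lower (5.88%), led by stai (stathmin), betaTub56D and Tm1, with 3.51, 3.02 and 2.43. Proc, the neuropeptide proctolin, was found in 49.7% of twit-high cells (42.4 to 57.1%) and 9.96% of low-twit cells (7.89 to 12.4%), with medians of 12.5 and 0 normalised counts. The peptide-processing genes Phm and Pal2 were lower, with 14.4% and 38.1%, and 28.9% and 54.2%.

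**Figure D5:**
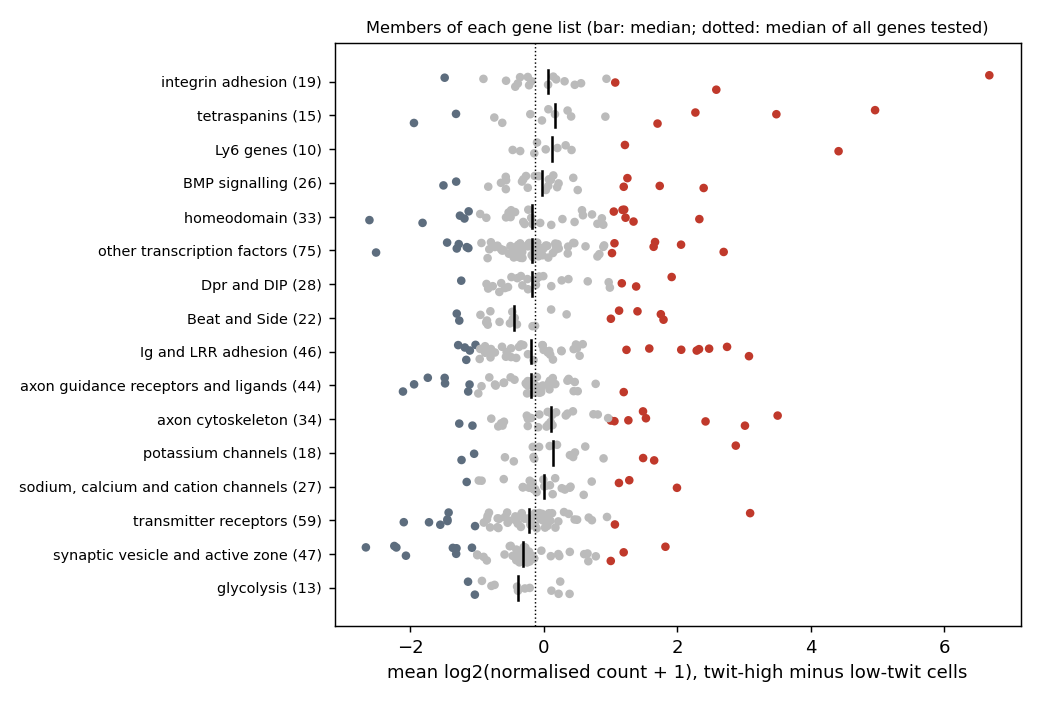
Mean log2(normalised count + 1) of twit-high minus low-twit cells (x axis) for the genes of 16 lists (rows, number tested in parentheses), 1 point per gene; red is 1 or more, dark grey is -1 or less, the bar is the list's median and the dotted line the median of all 4807 genes at -0.13. rhea stands at 6.68, lbm at 4.97 and CG14274 at 4.42, while most list medians lie near the dotted line.

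The lowest gene was sm (smooth), an RNA-binding protein of the hnRNP L family, with medians of 8.77 normalised counts in twit-high cells and 183.3 in low-twit cells and a share of 47.6% (40.3 to 55%) and 89.6% (87.2 to 91.7%). CG34355 was found in 15.5% and 73.8%, Hsp67Bc, a small heat shock protein, in 25.7% and 70.3%, and heph, a polypyrimidine tract-binding protein, in 5.35% and 43.4%. mbl (muscleblind), a splicing factor, was in turn among the highest, with 97.9% and 60.7%. Cbp53E, a calcium-binding protein, was found in 21.9% and 58.9%, Pkc53E, a protein kinase C, in 24.1% and 61.9%, and rad (radish) in 25.1% and 60.2%. All of these were lower, and mbl higher, on all 16 plates. Of the higher genes 92.2% were higher on 14 or more plates and 48.7% (75 genes) on all 16, and of the lower genes 87% were lower on 14 or more plates and 40.3% (87 genes) on all 16.

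Restricting both groups to cells with a Hox gene left most calls in place, although these cells are part of those that gave the calls. In such cells 90.3% of the higher genes and 89.8% of the lower genes were still called, and tsh was not (0.66). In the twit-high and low-twit cells with zfh1, 87.7% and 72.2% were still called. rhea then differed by 6.73 and Fas2 by 3.16.

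Clusters of the twit-high cells on their 50 most variable genes followed the number of genes detected. The 3 clusters held 73, 61 and 53 cells, with medians of 1456 genes in the largest and 1039 in the smallest, and the fewest in the other, and 21 of the 50 genes were of glycolysis or oxidative phosphorylation. Glycolysis genes took medians of 4.0%, 0.342% and 1.07% of reads and ribosomal RNA sequences 32.2%, 67.1% and 52.5%. Median twit was 668.3, 75.5 and 288.2 normalised counts. rhea was found in 91.8%, 90.2% and 92.5% of their cells, whereas lbm was found in 83.6%, 42.6% and 66%. The clusters were led by Pglym78, Tpi and Pgk, by ribosomal RNA sequences, and by tsr and 5-HT1A. Lim3, HGTX, tup or exex was found in 39, 21 and 22 of their cells, and eve or grn in 15, 11 and 12, so each cluster held cells of both sets.

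The genes most like twit across the twit-high cells were CG7781 (Pearson's r = 0.70), lbm (0.67) and Tsp42Ee (0.66) of 1451 genes, followed by genes of respiration and translation such as UQCR-Q (0.64). These r values describe cells that differ in depth and quality, and twit followed the log2 number of genes detected itself (0.63). After regression on that number and on the total reads, lbm (0.55), AnxB9 (0.44), CG14274 (0.41) and SP1173 (0.41) were the most alike, and rhea had 0.39.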

How the data were processed

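The cells analysed here lie on 16 plates by their labels and were sequenced with 75 b single-end reads (methods of the study). The authors trimmed the reads and pseudo-aligned them to the BDGP6 transcriptome with kallisto 0.43.0. They deposited a table of counts (estimated counts summed per gene and rounded, 7279 genes) and, per cell, estimated counts and TPM values for 30651 transcripts. VGlut was an exception to this sum. It had 10 or more reads in 164 twit-high and 693 low-twit cells in the count table, and in 143 and 604 by its transcripts. Quality filters kept cells with 10 or more reads of at least 500 genes; of the 999 cells deposited 959 reached this, and 179 of 187 twit-high cells. Low-twit cells numbered 733, and cells with a targeted Hox gene 165 (twit-high) and 425 (low-twit). Higher genes numbered 154 and lower genes 216 of 4807. No pair of cells had identical counts. 

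Counts were divided by total over median total, log2-transformed with a pseudocount of 1 and averaged per group (Python 3.11.15, pandas 2.3.3, scipy 1.17.1). The difference and its call were tested on simulated data. Intervals are exact Clopper-Pearson. Genes named are the 25 highest, the 20 lowest, up to 8 of each list with the largest difference, all Hox genes, 10 genes most like twit and 5 leading genes of each cluster, and a few added by name. Members and gene lists were chosen with earlier results of these data known. Gene positions are from Ensembl release 115 (BDGP6.54); 23 of 46 leading genes overlap another protein-coding gene, and strand was not recorded, so their reads may be shared. Doublets were not called. Clusters used Ward linkage. mbl, side and 3 genes of unclear family were taken out of lists to which they do not belong.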

Additional observations from a re-analysis of the deposited data

How the results depend on the processing

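No paired analysis was possible because the labels give all cells as 1 group, with no replicate number shared by twit-high and low-twit cells; averaging the differences within plates gave 3.14% higher and 4.6% lower genes. Genes higher in twit-high cells (3.2% of the 4807 genes) were 7.82% at a limit of 0.5, 0.999% at 2, 6.34% with a pseudocount of 0.1 and 1.1% with 10. Genes lower in twit-high cells (4.49%) were 16.2% at 0.5, 0.645% at 2, 9.34% with a pseudocount of 0.1, 1.14% with 10 and 22.9% with a ratio of mean CPM of 2. Leaving out each plate gave 3.12 to 3.31% higher and 4.12 to 5.14% lower genes, and Hox genes in 87.1 to 89.1% of twit-high cells. That Hox share (88.2%) was 94.1% at 1 or more reads and 80.2% after thinning. The largest of the subgroups of twit-high cells held 39% of them, and 61% when 2 clusters were drawn. The differences of 45 named genes kept their direction in all 29 settings that gave them, but not their size. The size moved for 34 of the 45 genes with a pseudocount of 0.1 and for 35 with 10. It also moved for 5 in cells with a Hox gene and for 6 in cells with zfh1. The 45 genes were the 25 highest and 20 lowest genes of the same comparison. Many settings left out a single plate and so shared most cells, which made a reversal unlikely. The Hox, zfh1, VGlut, gene-number and ribosomal RNA settings were added after seeing the data. Of 16 genes whose shares of cells were recomputed at 1 read and after thinning, 15 kept their order between twit-high and low-twit cells, and VGlut was the exception at 1 read. Embryos were pooled, so no spread between embryos is known. Depth limits low transcription factors, whose absence at 10 reads is no evidence that a cell lacks them.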

Other observations

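A further 9 cells had 10 or more reads of both twit and Vmat and are in neither group. Their twit counts were between 34 and 1395 reads, and 4 of the 9 cells had under 100 reads. rhea was found in 4 of them, AnxB9 in 3, lbm in 3 and CG1402 in 0, against 91.4%, 79.7%, 65.2% and 92% of twit-high cells. VGlut was found in 8 and zfh1 in 5. DAT, ple, Ddc, Tbh and Tdc2, genes of monoamine neurons, were each found in 4 of the 9 cells, and DAT and Tdc2 in no twit-high cell. Of the 70 cells with Vmat and without twit, 13 had rhea and 2 had AnxB9. Whether the 9 wells held more than 1 cell was not tested.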
